A study of Homo sapiens with 6 samples.

Results

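The genes described here act upstream of the transcription factor ATF4 in the integrated stress response, and they were read in HEK293 cells after minocycline or its vehicle. They are the 4 kinases of the translation initiation factor eIF2alpha (EIF2AK1, EIF2AK2, EIF2AK3 and EIF2AK4), eIF2alpha itself (EIF2S1), the phosphatase subunits PPP1R15A and PPP1R15B, the mitochondrial relay genes OMA1 and DELE1, and GCN1. They were chosen by name, and each of the 10 symbols matched a single row among the 57820 gene rows of the count table. All 10 had enough counts to be among the 17225 genes tested.

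HEK293 is an established cell line that was derived from human embryonic kidney. Cells received 100 µM minocycline, a tetracycline antibiotic, or dimethyl sulfoxide (DMSO) vehicle for 12 h, and neither group was heat shocked. Each group held 3 libraries of total RNA, which the series' design text calls biological replicates, and each replicate number is also a batch that holds 1 library of each group. The comparison addresses how transcripts of these regulators differed after the drug.

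In the integrated stress response, any of several kinases phosphorylates eIF2alpha on a serine, which lowers the supply of initiator tRNA to ribosomes and lets the ATF4 mRNA be translated. HRI (EIF2AK1) responds to heme shortage and to mitochondrial stress, PKR (EIF2AK2) to double-stranded RNA, PERK (EIF2AK3) to unfolded protein in the endoplasmic reticulum, and GCN2 (EIF2AK4) to uncharged tRNA and stalled ribosomes. OMA1, a protease of the mitochondrial inner membrane, cleaves DELE1, and the DELE1 fragment activates HRI in the cytosol. PPP1R15A (GADD34) and PPP1R15B (CReP) direct protein phosphatase 1 to eIF2alpha and so reverse the kinases. Most of these steps act on protein, and transcript counts do not measure kinase activity or phosphorylation.

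The libraries held 17303180 to 17830320 counts with minocycline and 17395826 to 17835756 counts with vehicle. Levels below are counts relative to the library total, scaled with TMM factors (CPM). Control replicate 1 stood apart from the other control libraries. On the first principal component of all genes tested, which held 61.0% of the variance, minocycline replicates 1, 2 and 3 scored -10.2, -26.4 and 1.45, and control replicates 1, 2 and 3 scored -28.3, 25.2 and 38.2. The fold changes of all 10 genes are therefore also given without control replicate 1. Of the markers chosen for HEK293, VIM, KRT8, KRT18, LIN28B, NEFM and PAX2 were all detected, at 2.61 to 1050 CPM, and PTPRC, CD3E, ALB and HBB, markers of leukocytes, liver and red cells, had at most 4 counts in any library. The fibroblast collagen genes COL1A1 and COL3A1 were at 53.0 to 81.1 and 1.41 to 2.15 CPM, and the summed level of these 6 other-cell markers was 55.3 to 71.6 CPM with minocycline and 75.0 to 82.9 CPM in control. Their part in the results below was not tested.

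None of the 10 genes changed past the threshold, a Benjamini-Hochberg adjusted p under 0.05 over all genes tested in edgeR's quasi-likelihood test. Among all genes tested that threshold was passed by 9, or 0.0522%, all of them higher, and by 0% in the lower direction, so that a count of 0 among 10 genes equals what this background gives. No member had an unadjusted p under 0.05 in this fit either, where 2.72% of all genes were higher and 1.97% lower. DESeq2 and limma-voom also called 0 members. The fitted log2 fold changes of minocycline over vehicle ran from -0.24 for EIF2AK1 to 0.34 for EIF2AK3. Their median was 0.07, beside 0.01 over all genes tested, with 6 fitted higher and 4 fitted lower. In bulk RNA, a lower level per cell and a smaller number of cells that carry a transcript cannot be told apart.

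**Figure D1:**
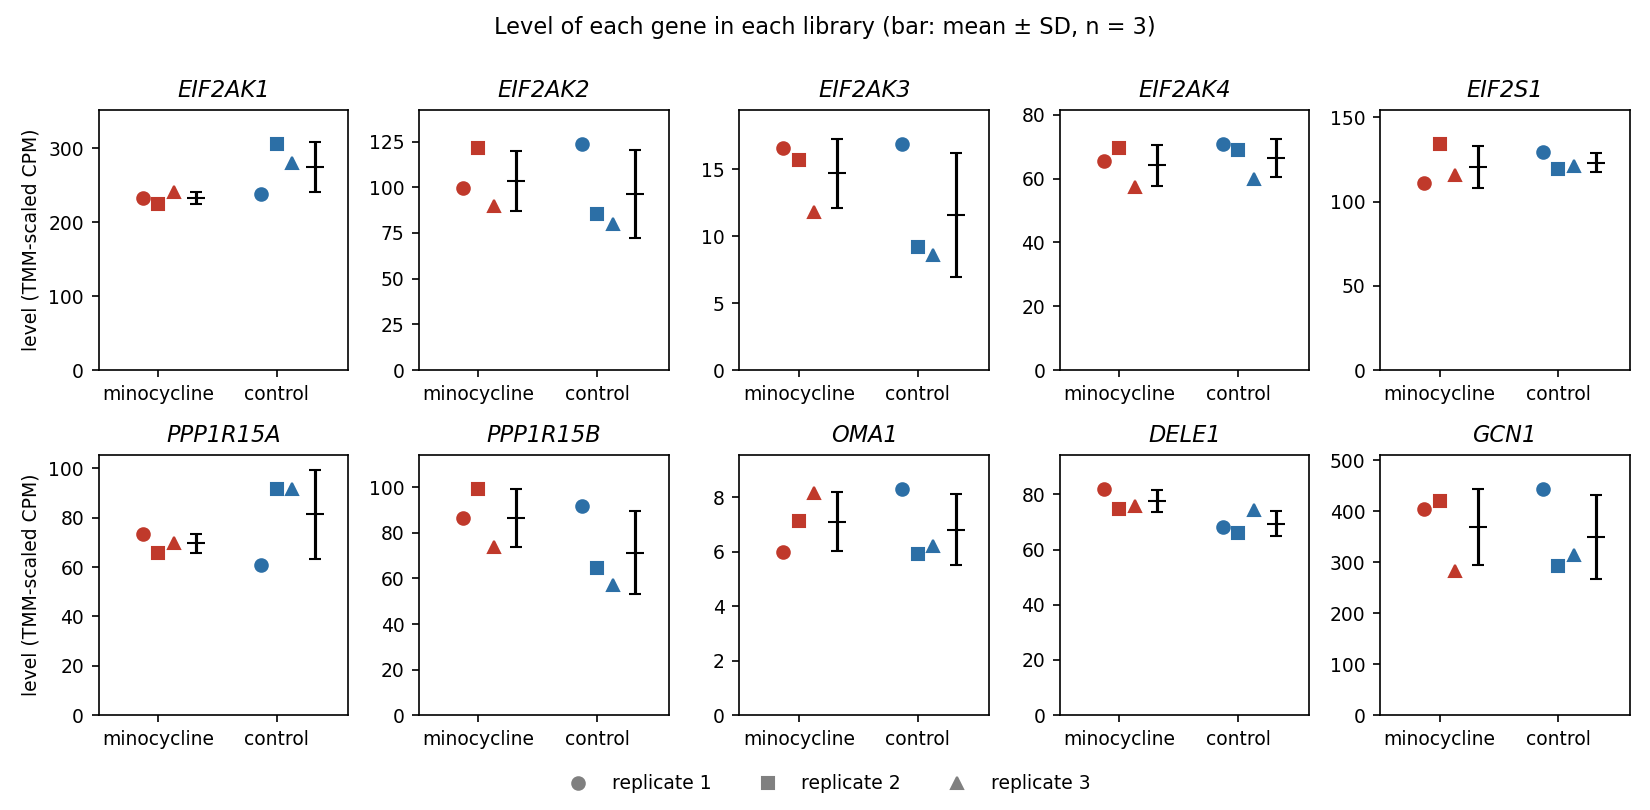
Level of each of the 10 genes in each library in TMM-scaled CPM (vertical axis, from 0), minocycline on the left in red and control on the right in blue, with replicates as symbols and mean ± SD as bars (n = 3). Control replicate 1 lies on the minocycline side of the other controls in EIF2AK1, EIF2AK2, EIF2AK3, PPP1R15A and PPP1R15B, and the groups fail to overlap in DELE1 alone.

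EIF2AK1, which encodes HRI, had 232, 225 and 241 CPM in minocycline replicates 1, 2 and 3, against 238, 306 and 280 CPM in control replicates 1, 2 and 3. The minocycline libraries lay close together and below 2 of the 3 control libraries, and control replicate 1 fell among them. EIF2AK1 had a log2 fold change of -0.24 ± 0.13 (SE), with a 95% interval from -0.54 to 0.06 and an adjusted p of 0.820. This interval runs from a fold of 0.688 to 1.04, so that a doubling of the transcript lies outside it. Its p was the smallest of the 10 genes, and 1995 genes of the table had a smaller one. In edgeR's test with a correction for gene length and GC content, EIF2AK1 was at -0.33 (unadjusted p = 0.0302, adjusted p = 0.597). With the replicate number added as a block it was at -0.32 (unadjusted p = 0.0315, adjusted p = 0.496). Over 17 alternative fits the log2 fold change of EIF2AK1 ran from -0.33 to -0.14.

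EIF2AK3, which encodes PERK, had 16.6, 15.7 and 11.8 CPM with minocycline, against 16.9, 9.20 and 8.58 CPM in control. All 3 minocycline libraries lay above control replicates 2 and 3, and control replicate 1 was the highest of the 6. The log2 fold change of 0.34 ± 0.27 was the largest of the 10 genes and also the least certain, with a 95% interval from -0.27 to 0.95 (adjusted p = 0.825). Its counts were low, with 142 in the lowest library, for which counting error alone is 8.39%.

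EIF2AK2, which encodes PKR, had 99.7, 122 and 89.7 CPM with minocycline, against 124, 85.4 and 79.9 CPM in control. Every minocycline library lay above control replicates 2 and 3, but control replicate 1 was again the highest library, so that the groups overlapped. The log2 fold change was 0.11 ± 0.19 (95% interval -0.32 to 0.53, adjusted p = 0.901).

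EIF2AK4, which encodes GCN2, had 65.4, 69.7 and 57.3 CPM with minocycline, against 71.0, 69.0 and 59.8 CPM in control. The groups covered nearly the same range, and the log2 fold change was -0.05 ± 0.13 (95% interval -0.36 to 0.25, adjusted p = 0.925). GCN1, the ribosome-bound protein that GCN2 needs for its activation, had 404, 420 and 283 CPM with minocycline, against 444, 292 and 314 CPM in control. Its spread within each group, 20.3% with minocycline and 23.5% in control as a coefficient of variation, exceeded the difference between the means, and the log2 fold change was 0.08 ± 0.20 (95% interval -0.38 to 0.54, adjusted p = 0.933).

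Set side by side per kilobase of annotated exon, the HRI transcript was the most abundant of the 4 kinase transcripts in every library. EIF2AK1 averaged 42.3 ± 1.43 CPM per kb with minocycline and 50.02 ± 6.24 CPM per kb in control (SD, n = 3 each), EIF2AK2 averaged 9.40 ± 1.49 and 8.73 ± 2.17, EIF2AK4 averaged 5.35 ± 0.524 and 5.56 ± 0.496, and EIF2AK3 averaged 0.709 ± 0.124 and 0.559 ± 0.224, in the same group order. HRI thus made up 73.3 ± 3.27% of the summed per-length level of the 4 kinases with minocycline and 76.9 ± 5.39% in control. The sum itself was 57.6, 58.5 and 57.3 CPM per kb in minocycline replicates 1, 2 and 3, and 61.3, 69.7 and 63.6 CPM per kb in control replicates 1, 2 and 3. The groups do not overlap in this sum, most of which is EIF2AK1, and no test was run on it. Groups lay apart with minocycline lower in 3.56% of all single genes tested, and the share for such sums is not given here. EIF2AK1 alone overlapped between groups with TMM scaling. The sum with other scalings is not given here, and its gap is not read as a result about the kinases. The exon length matters here: EIF2AK3 spans 20691 bases over all annotated exons and 4724 in its longest transcript, and with the longest transcript its share became 3.995 ± 0.649% with minocycline and 2.87 ± 1.27% in control, against 1.23 ± 0.208% and 0.874 ± 0.397% with all exons. EIF2AK4 then stood above EIF2AK2, at 11.6 ± 1.14 CPM per kb with minocycline and 12.0 ± 1.07 in control, beside 10.3 ± 1.62 and 9.54 ± 2.37 for EIF2AK2.

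**Figure D2:**
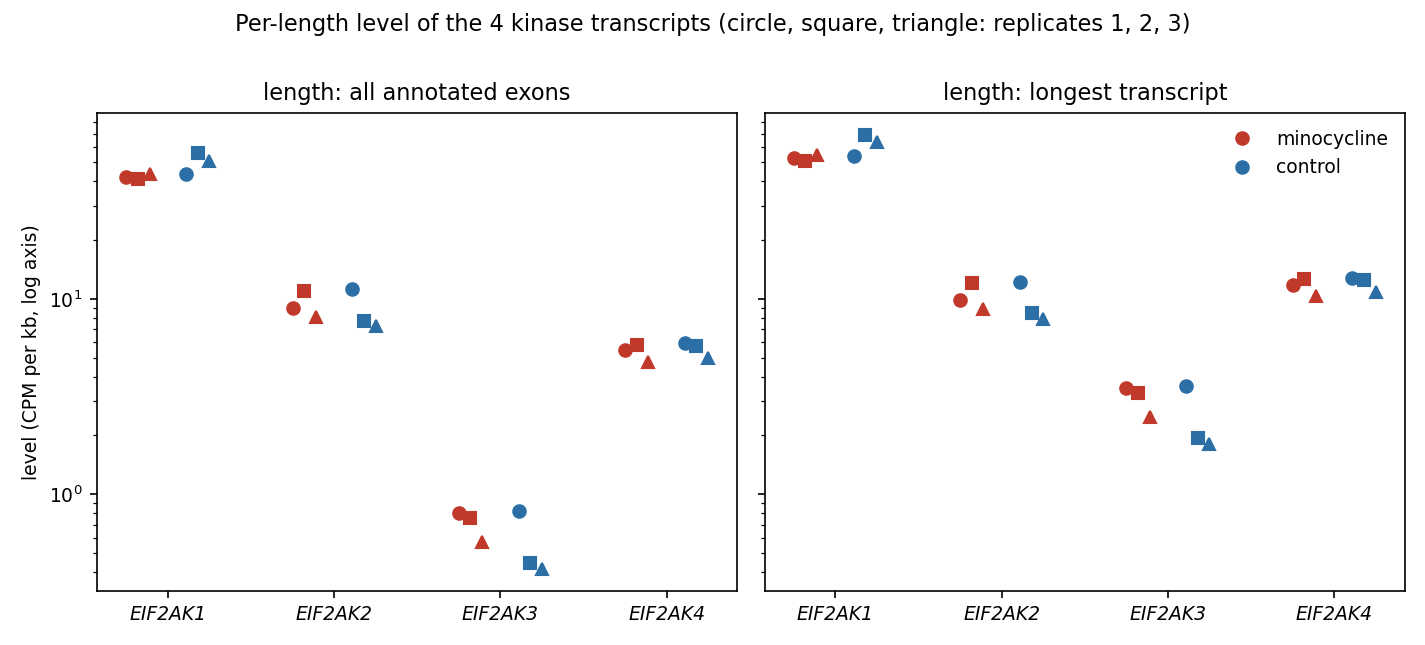
Per-length level of the 4 kinase transcripts in CPM per kb on a log axis, with minocycline in red left of control in blue and 1 symbol per library. The left panel divides by all annotated exons and the right panel by the longest transcript; EIF2AK1 is highest in both, and EIF2AK2 and EIF2AK4 change places.

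Among all 10 genes on the same per-length scale, EIF2AK1 and GCN1 (38.2 ± 7.74 CPM per kb with minocycline and 36.2 ± 8.498 in control) were highest, followed by EIF2S1 (22.6 ± 2.32 and 23.2 ± 1.02) and PPP1R15A (20.3 ± 1.11 and 23.7 ± 5.21). DELE1 (12.9 ± 0.662 and 11.6 ± 0.740), EIF2AK2 and PPP1R15B (9.28 ± 1.36 and 7.64 ± 1.94) came next, then EIF2AK4, OMA1 (1.91 ± 0.291 and 1.83 ± 0.351) and EIF2AK3. This order uses all annotated exons as the length. Within it the libraries of EIF2AK1 and GCN1, of EIF2S1 and PPP1R15A, and of EIF2AK2 and PPP1R15B overlapped in level in both groups. Those of DELE1 and EIF2AK2 overlapped in control. With this length these neighbours are not separated by their spread. The order and the overlaps differ with the longest transcript. There EIF2AK1 lay above GCN1 and EIF2S1 above PPP1R15A in both groups, and PPP1R15B lay above EIF2AK2 with minocycline. PPP1R15B then averaged 16.5 ± 2.42 CPM per kb with minocycline and 13.6 ± 3.45 in control, beside 15.8 ± 0.81 and 14.2 ± 0.905 for DELE1. OMA1 and EIF2AK3 were separated with all exons as the length, and overlapped with the longest transcript.

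EIF2S1, the subunit of eIF2 that the kinases phosphorylate, was level between groups. It had 111, 134 and 116 CPM in minocycline replicates 1, 2 and 3, against 129, 119 and 121 CPM in control replicates 1, 2 and 3. The control values lay within the range of the minocycline values, and the log2 fold change was -0.03 ± 0.13 (95% interval -0.31 to 0.25, adjusted p = 0.955).

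The other subunits of the complex were read for comparison. EIF2S3, which encodes eIF2gamma, the subunit that binds GTP and the initiator tRNA, had 763, 755 and 751 CPM with minocycline, against 617, 617 and 614 CPM in control. Replicates of this gene differed by little, and every minocycline library lay above every control library. The same holds for 5.74% of all genes tested. EIF2S2, which encodes eIF2beta, had 179, 205 and 240 CPM with minocycline, against 172, 158 and 150 CPM in control. Its groups did not overlap either, by a narrow gap of 179 against 172 CPM. The log2 difference of EIF2S2 within batches 1, 2 and 3 was 0.06, 0.38 and 0.68. Neither passed over all genes in edgeR's test, with log2 fold changes of 0.30 ± 0.12 for EIF2S3 and 0.38 ± 0.14 for EIF2S2 (adjusted p = 0.820 for both). Without control replicate 1, EIF2S2 passed (0.43, adjusted p = 0.0317) and EIF2S3 did not (0.30, adjusted p = 0.0939). There, 9.52% of 17658 genes tested passed as higher, so that such a pass is not particular to EIF2S2. The log2 fold change of EIF2S3 was 0.21 to 0.37 over 17 alternatives. A near-identical copy, EIF2S3B, is listed at a mean of 10.7 CPM, and how reads were divided between the copies is not given in the sources used here. The difference between EIF2S1 and its partner subunits was not tested.

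**Figure D3:**
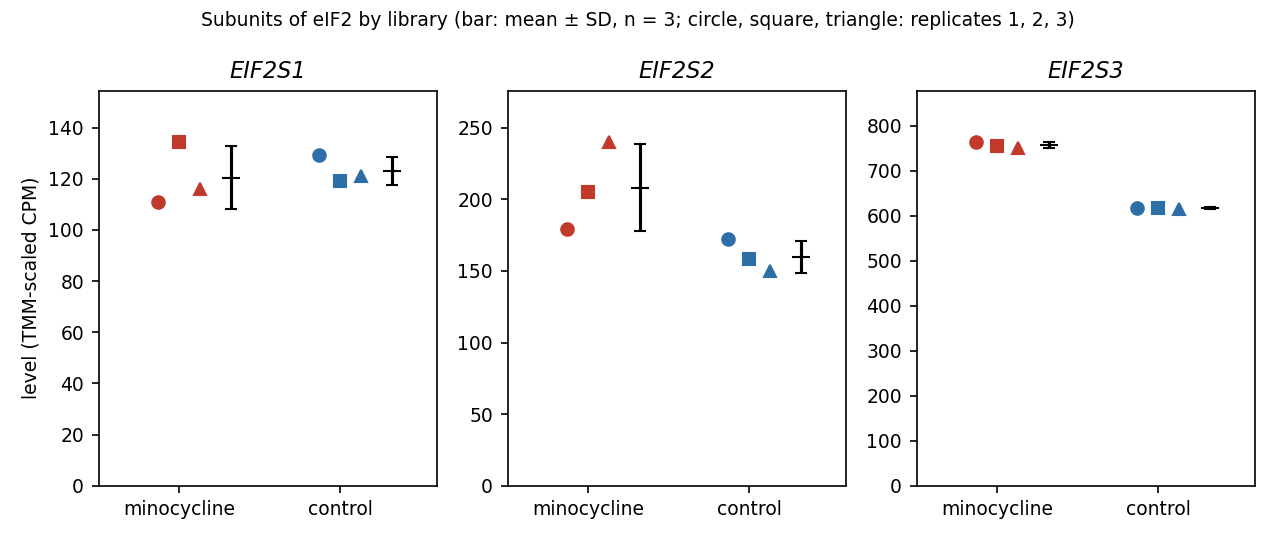
Level of the alpha (EIF2S1), beta (EIF2S2) and gamma (EIF2S3) subunit transcripts of eIF2 in each library in TMM-scaled CPM (vertical axis, from 0), minocycline left of control, with mean ± SD as bars (n = 3). The groups overlap for EIF2S1, and lie apart for EIF2S2 and EIF2S3, as they do with minocycline higher in 5.74% of all genes tested.

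PPP1R15A encodes GADD34, the stress-inducible phosphatase subunit and a known target gene of ATF4. It had 73.4, 65.8 and 69.8 CPM in minocycline replicates 1, 2 and 3, against 60.7, 91.6 and 91.8 CPM in control replicates 1, 2 and 3. The minocycline libraries lay below control replicates 2 and 3 and above control replicate 1. The log2 fold change was -0.22 ± 0.17 (95% interval -0.61 to 0.16, adjusted p = 0.825), and the upper end of the interval is a fold of 1.12. Other ATF4 targets in the same libraries varied: ASNS averaged 372 ± 46.8 CPM with minocycline and 124 ± 17.5 CPM in control (SD, n = 3 each) and passed as higher, whereas TRIB3, DDIT3 and ATF3 did not pass, with fitted folds of 1.77, 1.33 and 1.09. The 95% interval of the fold was 1.26 to 2.49 for TRIB3, 0.832 to 2.13 for DDIT3 and 0.899 to 1.33 for ATF3. These examples were picked with their values known.

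PPP1R15B encodes CReP, the phosphatase subunit that is held to act constitutively. It had 86.6, 99.3 and 73.9 CPM with minocycline, against 91.8, 64.8 and 57.3 CPM in control. Here the minocycline libraries lay above control replicates 2 and 3, and control replicate 1 lay above 2 of the minocycline libraries. PPP1R15B had a log2 fold change of 0.28 ± 0.19 (95% interval -0.15 to 0.71, adjusted p = 0.820). In CPM, PPP1R15A was 0.847, 0.662 and 0.945 times PPP1R15B in minocycline replicates 1, 2 and 3, and 0.661, 1.41 and 1.601 times in control replicates 1, 2 and 3. The log2 of this ratio averaged -0.31 ± 0.26 with minocycline and 0.19 ± 0.69 in control, a difference of -0.50 that is smaller than the control SD, and it was -0.89 without control replicate 1. A ratio within a library does not depend on how libraries were scaled, but it can depend on gene length and GC content. With the correction for these, the log2 fold changes were -0.15 for PPP1R15A and 0.16 for PPP1R15B.

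The promoters of the phosphatase genes are shown because PPP1R15A is a known target of ATF4. They were also chosen because the fitted fold changes of these genes lay on opposite sides of 0. Both intervals included 0, from -0.61 to 0.16 for PPP1R15A and from -0.15 to 0.71 for PPP1R15B. Their opposite signs are therefore not read as a result, and the promoter letters are not offered as a reason for them. Of 9 member genes with a RefSeq promoter window (all but EIF2AK1; GRCh38.p14, 250 bases before to 50 after the start), PPP1R15B was the only one that held the letters TGATGNAA on either strand, a core of the composite element bound by ATF4 with C/EBP factors. These letters occur in 3.62% of 35116 windows. They stood 227 to 220 bases before the start of PPP1R15B, and of 4 downstream genes with a window that rose in the comparison below, ASNS and CHAC1 held them. The 250 bases before the start of PPP1R15B (chr1:204411818-204412067, minus strand, GRCh38.p14), with this match in capitals, and a shorter stretch around the match before ASNS (chr7:97872454-97872491, minus strand) and before CHAC1 (chr15:40953247-40953284, plus strand, where the match reads as its reverse complement) are:
PPP1R15B: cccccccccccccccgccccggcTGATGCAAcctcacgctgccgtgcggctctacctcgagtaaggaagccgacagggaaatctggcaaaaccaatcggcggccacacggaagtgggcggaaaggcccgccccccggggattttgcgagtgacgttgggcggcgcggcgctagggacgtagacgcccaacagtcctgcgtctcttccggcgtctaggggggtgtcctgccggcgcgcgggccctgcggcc
ASNS: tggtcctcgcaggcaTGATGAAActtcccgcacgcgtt
CHAC1: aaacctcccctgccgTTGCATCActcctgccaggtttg

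PPP1R15A held no TGATGNAA in its window and was the only one of the 9 with the palindrome TGACGTCA, the cyclic AMP response element that CREB and ATF family proteins bind, at 58 to 51 bases before the start. This palindrome occurs in 1.85% of the windows, and it does not overlap the other letters searched. The 250 bases before the start of PPP1R15A (chr19:48872171-48872420, plus strand, GRCh38.p14), with the palindrome in capitals, are:
PPP1R15A: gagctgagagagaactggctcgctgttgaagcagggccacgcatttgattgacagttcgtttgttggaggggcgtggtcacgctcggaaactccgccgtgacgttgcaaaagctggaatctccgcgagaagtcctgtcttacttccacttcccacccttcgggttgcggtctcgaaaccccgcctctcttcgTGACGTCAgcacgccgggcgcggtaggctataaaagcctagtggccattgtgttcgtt

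The windows of the other 7 matched members held neither run of letters. A match of letters is a description, and binding was not measured. The search was for exact letters, so that their absence does not show that a promoter lacks a site for ATF4. Whether the letters bear on any fold change was not tested.

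DELE1, the substrate of OMA1 and activator of HRI, was the only gene of the 10 whose groups did not overlap with TMM scaling. It had 82.1, 74.7 and 75.8 CPM in minocycline replicates 1, 2 and 3, against 68.1, 65.9 and 74.4 CPM in control replicates 1, 2 and 3. The gap between the lowest minocycline library and the highest control library was narrow, 74.7 against 74.4 CPM, and the groups overlapped with RLE or upper-quartile factors and with a correction for gene length and GC content. With RLE factors or library size scaling the groups of EIF2AK1 lay apart instead or as well, with minocycline lower, and with the correction those of EIF2AK4 did. Groups lay apart in 9.31% of all genes tested, 5.74% with minocycline higher and 3.56% with it lower, so that 1 gene of 10 is near the background. Without control replicate 1 the groups of 6 of the 10 genes lay apart, and without minocycline replicate 2 or 3 those of 2 did. These settings have fewer libraries to overlap. The share of all genes that lay apart in them is not given here. The counts are therefore not read as a result about these genes. The log2 fold change of DELE1 was 0.16 ± 0.12 (95% interval -0.11 to 0.43, adjusted p = 0.825), which is at most a fold of 1.35 within the interval. The estimate was 0.14 without control replicate 1 and within batches 1, 2 and 3 the log2 difference was 0.27, 0.18 and 0.03, whose common sign follows from groups that do not overlap.

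OMA1 was the lowest of the 10 genes in counts, with 99 to 153 per library. It had 6.01, 7.12 and 8.17 CPM with minocycline, against 8.31, 5.91 and 6.23 CPM in control. The minocycline values lay within the range of the control values, and the log2 fold change was 0.06 ± 0.21 (95% interval -0.42 to 0.53, adjusted p = 0.953). The interval holds folds from 0.750 to 1.44, and these counts do not tell changes of OMA1 within that range apart. Counting error in its lowest library was 10.1%, beside a coefficient of variation of 15.2% with minocycline and 19.2% in control.

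**Figure D4:**
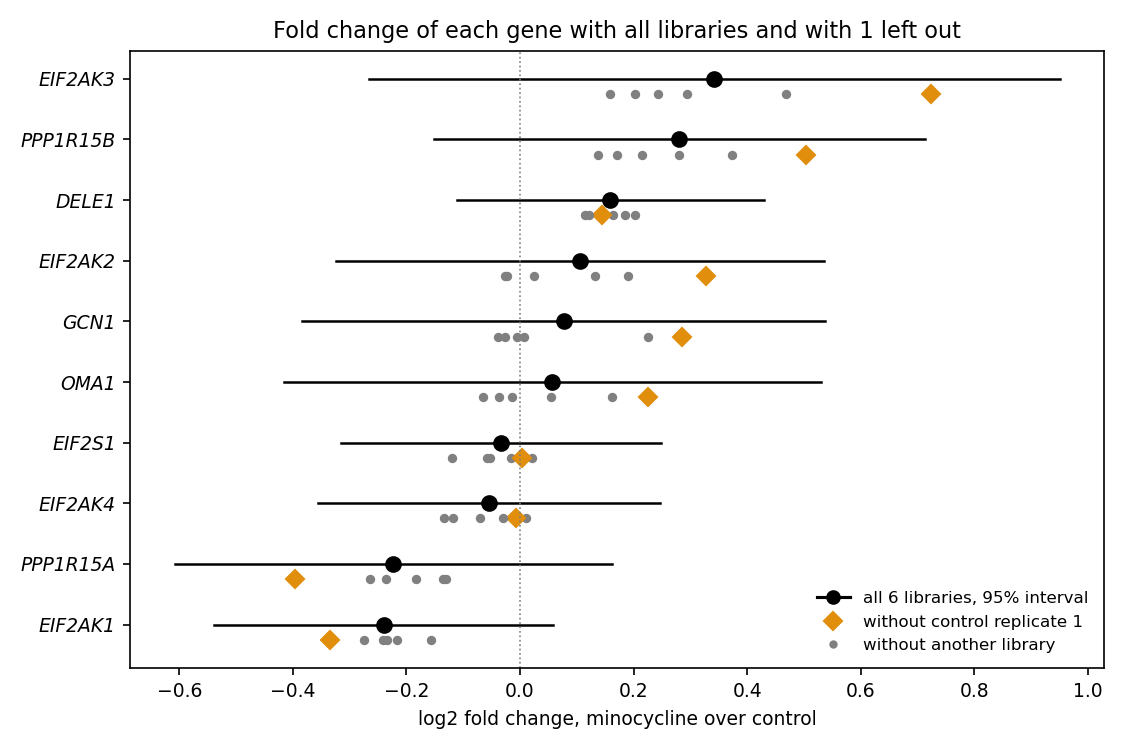
Log2 fold change of minocycline over control for each gene (horizontal axis) with all 6 libraries (black, 95% interval) and with 1 library left out (grey; orange where control replicate 1 is left out). All 10 intervals include 0, and leaving out control replicate 1 moves EIF2AK3 to 0.72, PPP1R15B to 0.50, PPP1R15A to -0.40 and EIF2AK1 to -0.33.

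Several of the genes were ordered across libraries much as the libraries were on the first principal component. EIF2AK2, EIF2AK3, PPP1R15B and GCN1 each had their 3 highest levels in control replicate 1 and minocycline replicates 1 and 2, the 3 libraries with scores below 0. EIF2AK1 and PPP1R15A had their 2 highest levels in control replicates 2 and 3, at the other end of the component. Relative to its mean over 6 libraries, EIF2AK3 stood at 0.39, 0.31 and -0.10 on the log2 scale in minocycline replicates 1, 2 and 3, and at 0.42, -0.46 and -0.56 in control replicates 1, 2 and 3. PPP1R15A stood at -0.02, -0.18 and -0.10 with minocycline, and at -0.30, 0.30 and 0.30 in control. In EIF2AK2, EIF2AK3, PPP1R15B and GCN1 control replicate 1 thus lay with minocycline replicates 1 and 2 above the mean and minocycline replicate 3 lay below it, and the part of this component in the results was not tested beyond the fits that follow.

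**Figure D5:**
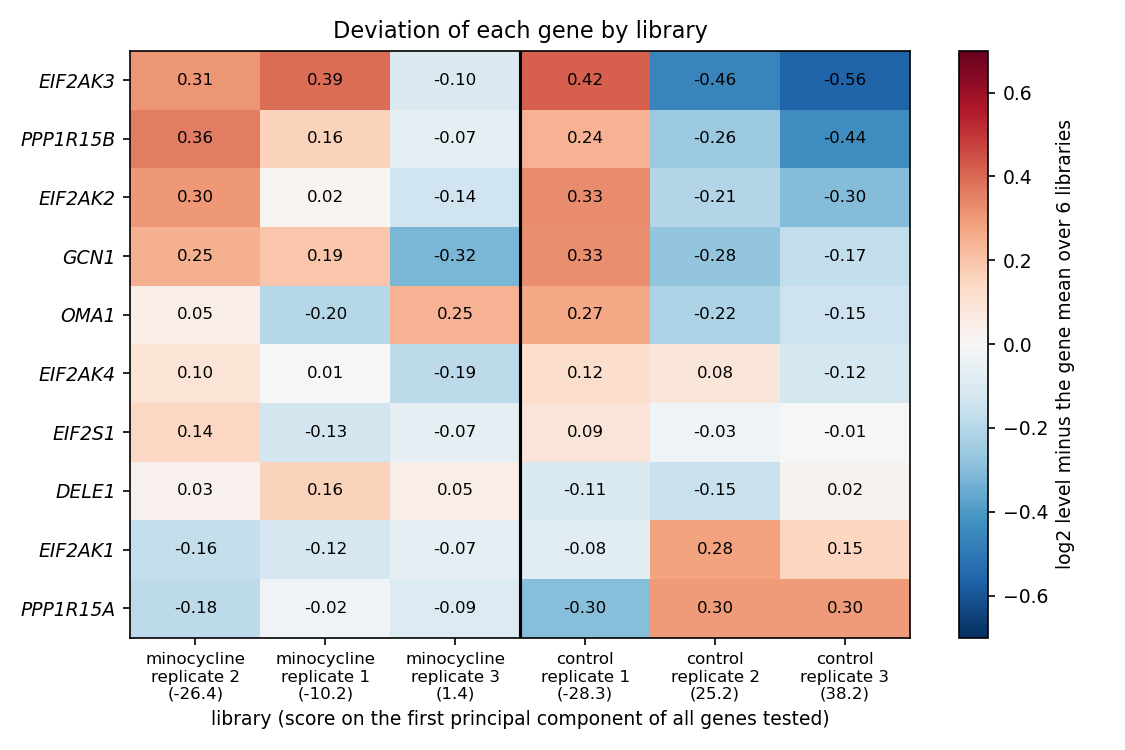
Log2 level of each gene in each library minus the gene's mean over 6 libraries (colour and printed value), with minocycline libraries left of control libraries and each library's score on the first principal component in brackets. Control replicate 1 shows the colours of minocycline replicate 2 in most genes, and control replicates 2 and 3 mostly the opposite ones.

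Without control replicate 1, 4 of the 10 genes passed: EIF2AK3 with a log2 fold change of 0.72 (adjusted p = 0.0155) and PPP1R15B with 0.50 (adjusted p = 0.0207) as higher, and PPP1R15A with -0.40 (adjusted p = 0.0266) and EIF2AK1 with -0.33 (adjusted p = 0.0498) as lower. In that setting 9.52% of 17658 genes passed as higher and 8.34% as lower, and treatment then ran along the component. The other 6 genes did not pass there, with log2 fold changes of 0.33 for EIF2AK2, 0.28 for GCN1, 0.23 for OMA1, 0.14 for DELE1, 0.0035 for EIF2S1 and -0.0070 for EIF2AK4. Another fit added 1 surrogate variable, a term estimated from the libraries themselves. It took values from -0.48 in control replicate 1 to 0.63 in control replicate 3. With it the 4 genes that had passed gave 0.07 for EIF2AK3, 0.07 for PPP1R15B, -0.01 for PPP1R15A and -0.14 for EIF2AK1. None of them passed there, where 0.482% of all genes passed as higher and 0.0464% as lower. EIF2AK3, PPP1R15B and PPP1R15A thus lay further from 0 in the first of these settings and near 0 in the second. DELE1 gave 0.18 with the surrogate variable (adjusted p = 0.647), close to its 0.16 in all libraries.

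The genes most like 3 of the members over the 6 libraries were picked by Pearson's r of log2 CPM among 11874 genes with a mean of at least 5 CPM. For EIF2AK3 they were ADAM19, PTGFRN and C2CD2L with r of 1.00, 0.999 and 0.998, for PPP1R15A TMEM11 and SPATA33 with r of 0.997 and 0.996, and for DELE1 TOR1A, HMX3 and EPHA10 with r of 0.991, 0.981 and 0.972. Likeness over so few libraries is common: 1296 genes had r above 0.9 with EIF2AK3 and 1491 with PPP1R15A, whereas 46 had with DELE1. The points share libraries and depth, and these values are a description.

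The wider pathway was read from 5 lists. Of 11 further genes of eIF2, eIF2B and associated initiation factors, 0 passed over all genes in either direction, the median log2 fold change was 0.01, and 2 had an unadjusted p under 0.05, EIF2S2 and EIF2S3. The subunits of eIF2B, the exchange factor that phosphorylated eIF2 blocks, ran from -0.21 ± 0.13 for EIF2B3 (52.7 ± 1.96 CPM with minocycline and 60.8 ± 5.34 CPM in control) to 0.02 ± 0.12 for EIF2B5. Of 12 regulators of the kinases, 0 passed, 0 had an unadjusted p under 0.05, and the median was -0.02. Those with the smallest p were TARBP2, an inhibitor of PKR, at -0.26 ± 0.15, the adaptor gene NCK2 at -0.24 ± 0.16, and MAP3K20, a kinase that senses collided ribosomes, at 0.21 ± 0.15, each with an adjusted p of 0.820.

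The 3 catalytic subunits of protein phosphatase 1, which PPP1R15A and PPP1R15B direct, were at -0.33 ± 0.18 for PPP1CA, -0.04 ± 0.11 for PPP1CC and 0.01 ± 0.13 for PPP1CB, and 0 passed. Of 12 mitochondrial proteases, prohibitins and other partners of OMA1 and DELE1, 0 passed and the median was -0.07. PMPCA, a subunit of the presequence peptidase, was at -0.32 ± 0.14 (adjusted p = 0.820) and the single gene of the list with an unadjusted p under 0.05, STOML2, a membrane scaffold gene, at -0.31 ± 0.17, and PARL, a rhomboid protease gene, at -0.26 ± 0.14. DESeq2 and limma-voom called 0 genes in these 4 lists. Of the genes named here, PPP1CA (-0.50), PMPCA (-0.42), STOML2 (-0.48), PARL (-0.37) and NCK2 (-0.38) passed as lower without control replicate 1. In that setting 8.34% of 17658 genes passed as lower. With 1 surrogate variable the same genes were at -0.09, -0.19, -0.09, -0.12 and -0.06, and none of them passed.

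Downstream, 5 of 11 genes of the list of ATF4 and its outputs passed as higher and 0 as lower, with a median log2 fold change of 0.83, 10 fitted higher and 1 lower. They were SLC7A11 (2.37 ± 0.21), PSAT1 (1.30 ± 0.12), ASNS (1.59 ± 0.16), CHAC1 (2.24 ± 0.24) and DDIT4 (1.81 ± 0.21). All 5 calls were lost without minocycline replicate 1 or without minocycline replicate 3 (0 of 11 passed in either), and those of PSAT1, ASNS and DDIT4 were lost without control replicate 2. The adjusted p then reached 0.0909 for SLC7A11, 0.104 for PSAT1 and ASNS, 0.180 for CHAC1 and 0.223 for DDIT4, while over all alternatives the log2 fold change stayed at or above 2.18, 1.24, 1.47, 1.99 and 1.62 for SLC7A11, PSAT1, ASNS, CHAC1 and DDIT4. These genes were put on the list with their values known, and their direction is not independent evidence. The 95% intervals of the 10 upstream genes had half-widths of 0.27 for DELE1 to 0.61 for EIF2AK3 on the log2 scale, so that a change of the size seen in any of these 5 genes lies outside the interval of every one of them.

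In GRCh37 coordinates, whose nuclear chromosomes match hg19, the kinase genes lie at chr7:6061878-6098806 on the minus strand (EIF2AK1), chr2:37326353-37384665 on the minus strand (EIF2AK2), chr2:88856259-88991036 on the minus strand (EIF2AK3) and chr15:40226316-40327792 on the plus strand (EIF2AK4). EIF2S1 lies at chr14:67827045-67853233 (plus), PPP1R15A at chr19:49375469-49379316 (plus), PPP1R15B at chr1:204365620-204381015 (minus), OMA1 at chr1:58881056-59012474 (minus), DELE1 at chr5:141303420-141321612 (plus) and GCN1 at chr12:120565006-120632518 (minus). All 10 are annotated as protein-coding. EIF2AK1 shares 532 exon bases with AIMP2 on the opposite strand, and since strand use is not given in the sources used here, reads there cannot be told apart. AIMP2 averaged 50.4 CPM, with a log2 fold change of -0.14 ± 0.15 (adjusted p = 0.840). EIF2AK3 shares 781 exon bases with a noncoding RNA gene on the opposite strand that averaged 0.104 CPM, and PPP1R15B shares 523 with another, which is not analysed here. EIF2AK2 shares 401 exon bases with the pseudogene ARL14EPP1 (0.0182 CPM) and 35 with GPATCH11 (27.2 CPM), both on the opposite strand, and OMA1 shares 257 with DAB1 on the same strand, where DAB1 averaged 2.80 CPM.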

How the data were processed

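Total RNA from 6 HEK293 cultures was sequenced paired-end from NEBNext Ultra II RNA libraries, per the labels' protocols. The authors deposited 1 table of raw counts per gene with no normalization and 1 column per library. The genome build was hg19, per the submitters' processing notes; the aligner, counting program, annotation and strand use are not given in the sources used here.

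Symbols came from a table of gene names (55538 identifiers matched); positions and exon lengths from a GENCODE annotation on GRCh37. The counts were filtered with filterByExpr, scaled with TMM and tested with edgeR 4.0.16 (glmQLFit, glmQLFTest; R 4.3.3) with treatment as the single term. The SE is the log2 fold change divided by the square root of F, and the 95% interval uses the t distribution with the fit's degrees of freedom. The principal components used log2(CPM + 1). The procedure was tested on simulated counts.

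The members and lists were chosen with earlier results of these data known. All 10 members are named; from each list, genes past the threshold and the 3 with the smallest p are named. Other genes given with values (EIF2B5, EIF2S3B, and the genes that share exon bases with a member) were chosen after their values were seen. PECAM1, chosen as a marker, is not analysed here, and 1 of the 3 genes most like PPP1R15A is not reported here.

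Alternatives were other scalings (RLE, upper-quartile, library size), limma-voom (3.58.1), DESeq2 1.42.0, 2 other filters (none, or 10 counts in each library), the replicate block, a length and GC correction (splines with 4 degrees of freedom) with and without the block, 1 surrogate variable (sva 3.50.0), and each library left out.

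The labels give the replicate number as the batch, which pairs the libraries. As a check, deviations from the group means over all genes correlated at -0.11, -0.42 and 0.36 in pairs 1, 2 and 3. Unmatched libraries ran from -0.548 for minocycline replicate 2 with control replicate 3 to 0.615 for minocycline replicate 2 with control replicate 1. The highest value was thus in an unmatched pair, and these values do not bear out the pairing. Chi-square over degrees of freedom was 5.80 to 63.6 for libraries of the same group, so that none repeats another within sampling noise.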

Additional observations from a re-analysis of the deposited data

How the results depend on the processing

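Over the 17 alternatives for each of the 10 genes, 146 of 170 log2 fold changes kept their direction and their side of the threshold, 4 passed the threshold, all without control replicate 1, and 20 changed sign without passing it. The count of members that passed was 0 in every alternative except without control replicate 1, so that it ran from 0 to 4 over the fits that leave out 1 library. With the replicate number as a block 0 members and 13 genes in all passed, and the block changed no call of a member.

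The signs that changed were those of values near 0, and the cause was not tested. EIF2AK2 was -0.033 with the length and GC correction, -0.037 with that correction and the block and -0.11 with 1 surrogate variable. OMA1 was -0.013, -0.0072 and -0.039 in the same 3 settings, and GCN1 was -0.14 with 1 surrogate variable. With library size scaling EIF2AK4 was 0.014, EIF2S1 0.038 and PPP1CC 0.033. PPP1CB was -0.0057 with RLE factors, -0.0081 with DESeq2, -0.0058 with no filter on low counts, -0.13 with the length and GC correction and -0.12 with that correction and the block. With 1 library left out the ranges were -0.026 to 0.33 for EIF2AK2, -0.13 to 0.010 for EIF2AK4, -0.12 to 0.021 for EIF2S1, -0.066 to 0.23 for OMA1, -0.038 to 0.28 for GCN1 and -0.092 to 0.083 for PPP1CB.

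Over all genes, 47 passed with DESeq2, 94 with no filter on low counts, 26 with the length and GC correction, 35 with that correction and the block, 91 with 1 surrogate variable, and 1 to 3154 with 1 library left out. Of the 49 genes on the pathway lists, where 5 passed, 8 did with no filter, 8 with the correction and the block, 9 with 1 surrogate variable, and 0 to 17 with 1 library left out. No gene of the 10 was limited by the filter on low counts; counting error is largest for OMA1, 10.1% in its lowest library.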
